A study of Rattus norvegicus with 18 samples.

Results

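The mitochondrial ribosomal protein genes were followed in the blood of rats on 3 diets, in the lymphocytes and monocytes left after Ficoll separation (peripheral blood mononuclear cells, PBMC). A gene was a member if its name on the array was Mrpl or Mrps followed by a number and if its probe was well above background in Cy5 on at least 5 of 18 arrays. Its brightest probe then stood for it. All 64 names that fit the pattern passed, so the members are 64 of the 21584 genes tested. Of these, 42 encode proteins of the large subunit and 21 proteins of the small subunit. The remaining one, Mrps36, carries a ribosomal name but RefSeq lists it as Kgd4, a subunit of the 2-oxoglutarate dehydrogenase complex. Mrps18a and Mrps30 are counted with the large subunit, where their proteins sit.

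The study held 18 adult male Wistar rats, 6 per diet, and 1 rat per array. Rats of the high-protein diet (HPD) took 10% of their energy from fat, 45% from protein, mainly casein, and 45% from carbohydrate. For the high-fat diet (HFD) these shares were 60%, 20% and 20%, and for the low-fat diet (LFD), the control, they were 10%, 20% and 70%. All rats began at 2 months of age, stayed on their diet for 4 months and fasted for 14 h before blood was taken. LFD rats ate freely, while HPD and HFD were served in amounts equal in energy to what the LFD rats had eaten. Each array compared the Cy5-labelled RNA of 1 rat with a Cy3-labelled equimolar pool of the samples, so a value below is the log2 ratio of 1 rat to that pool, and a difference between diets is a difference of such log2 ratios. The array whose title reads HFD replicate 7 has HPD in its source name and description and was counted as HPD replicate 7.

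The mitochondrial ribosome translates the few messages of mitochondrial DNA, all of them for subunits of the respiratory chain and ATP synthase. Its RNAs come from mitochondrial DNA, while all its proteins are encoded in the nucleus, made in the cytosol and imported. Many of the proteins descend from those of bacterial ribosomes and others arose in the mitochondrial lineage. In T cells, activation is known to increase mitochondrial mass and mitochondrial protein synthesis. Among the members, 38 have a bacterial counterpart and 24 are specific to mitochondria, with Mrpl55 and Mrps36 left unclassified.

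Promoters are shown first for 5 genes. Mrps18b, Mrpl51, Mrpl22 and Mrpl49 are the 4 members with the smallest p for HPD against HFD, none of them called after adjustment. Mrps10 is the member with the widest spread between arrays. Each sequence runs 5′ to 3′ from 250 bases before to 50 bases after the gene's start in RefSeq's annotation of GRCr8. Capitals mark matches, on either strand, to any of 6 motifs that are listed after the sequences. The stretch for Mrps18b is chr20:2842756-2843055 on the plus strand, that for Mrpl51 chr4:159677738-159678037 on the plus strand, and that for Mrpl22 chr10:42845660-42845959 on the plus strand. The stretch for Mrpl49 is chr1:212779278-212779577 on the minus strand and that for Mrps10 chr9:21122404-21122703 on the minus strand.
Mrps18b: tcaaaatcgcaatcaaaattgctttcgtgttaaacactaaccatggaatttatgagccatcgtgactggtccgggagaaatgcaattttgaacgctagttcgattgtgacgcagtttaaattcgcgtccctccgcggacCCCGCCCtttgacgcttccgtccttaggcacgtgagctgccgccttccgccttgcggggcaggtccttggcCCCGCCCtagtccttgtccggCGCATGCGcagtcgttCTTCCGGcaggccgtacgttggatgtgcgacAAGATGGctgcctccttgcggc
Mrpl51: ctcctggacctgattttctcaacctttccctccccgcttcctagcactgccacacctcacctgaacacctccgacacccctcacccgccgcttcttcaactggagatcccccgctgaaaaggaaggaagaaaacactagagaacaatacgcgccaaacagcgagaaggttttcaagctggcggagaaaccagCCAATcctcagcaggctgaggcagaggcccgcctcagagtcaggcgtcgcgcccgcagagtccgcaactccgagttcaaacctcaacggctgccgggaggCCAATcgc
Mrpl22: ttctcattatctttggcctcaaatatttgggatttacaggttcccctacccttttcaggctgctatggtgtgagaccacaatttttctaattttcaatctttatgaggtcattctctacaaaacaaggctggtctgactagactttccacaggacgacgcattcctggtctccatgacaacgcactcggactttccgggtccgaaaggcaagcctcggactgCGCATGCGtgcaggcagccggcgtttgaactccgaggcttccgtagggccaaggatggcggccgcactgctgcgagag
Mrpl49: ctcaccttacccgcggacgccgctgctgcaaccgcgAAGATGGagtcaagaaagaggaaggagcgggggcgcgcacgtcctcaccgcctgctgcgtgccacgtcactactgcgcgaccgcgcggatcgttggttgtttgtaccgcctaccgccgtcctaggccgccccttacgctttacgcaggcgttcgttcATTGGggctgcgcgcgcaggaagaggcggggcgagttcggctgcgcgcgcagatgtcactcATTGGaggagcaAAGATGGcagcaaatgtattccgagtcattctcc
Mrps10: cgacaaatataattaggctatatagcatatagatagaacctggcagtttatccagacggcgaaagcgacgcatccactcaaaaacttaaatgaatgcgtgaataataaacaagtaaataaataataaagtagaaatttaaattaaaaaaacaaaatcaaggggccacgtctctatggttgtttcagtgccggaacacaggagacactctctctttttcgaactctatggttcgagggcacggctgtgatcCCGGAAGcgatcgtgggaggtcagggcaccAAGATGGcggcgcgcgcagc

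The motifs were CCGGAAG for ETS factors such as GABPA (NRF2), GCATGCG for NRF1, AAGATGG for YY1, CCAAT for NF-Y, GGGCGGG for SP1 and related factors, and TATAAA for the TATA box. NRF1 and GABPA are known as regulators of nuclear genes for mitochondrial proteins. The GCATGCG motif overlaps its own reverse complement, so the run in Mrps18b and Mrpl22 counts on both strands. The Mrps18b promoter held matches to 4 of the motifs, for ETS factors, NRF1, YY1 and SP1, while Mrpl51 held CCAAT alone, in 2 copies. Mrpl22 held the NRF1 motif alone, Mrpl49 held CCAAT and the YY1 motif, and Mrps10 held the ETS and YY1 motifs.

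A RefSeq promoter was matched for 51 of the 64 members. The ETS motif was in 29.4% of the 51, against 9.2% of all 27457 promoters and 11.2% of the 19005 of protein-coding genes. The YY1 motif was in 27.5% of the members' promoters, against 7.3% of all and 7.6% of coding ones. For the NRF1 motif these shares were 9.8%, against 3.5% and 4.1%. CCAAT was in 41.2% of members' promoters, against 37.7% of all and 38.4% of coding ones. GGGCGGG was in 31.4%, against 24.2% and 30.7%, and TATAAA in 11.8%, against 14.3% and 13.1%. Members with the ETS motif had a median HPD minus HFD difference of 0.14 on the log2 scale and those without it 0.11, and for the YY1 motif these medians were 0.15 and 0.11. They were 0.13 and 0.11 for the NRF1 motif, 0.10 and 0.12 for CCAAT, 0.094 and 0.12 for GGGCGGG, and 0.11 and 0.12 for TATAAA. No motif matched in 13 of the 51 stretches. The median GC content was 55.7% in the members' promoters, 52.3% in all and 55.3% in those of protein-coding genes. A match is a stretch of letters and was not tested as a bound site.

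PBMC markers were present on the arrays. Measured were 14 of 16 listed T cell, 6 of 10 B cell, 11 of 13 NK and cytotoxic cell and 13 of 14 monocyte markers. So were 7 of 14 neutrophil, 10 of 14 platelet and 13 of 18 erythroid markers. A measured marker is a gene tested, so it had already passed the filter of at least 5 arrays. All 14 measured T cell and all 6 B cell markers were well above background in Cy5 on all 18 arrays. So were all 11 NK and cytotoxic cell markers and 11 of 13 monocyte markers. The same held for 4 of 7 neutrophil, all 10 platelet and 12 of 13 erythroid markers, which belong to cells outside the PBMC definition. The median Cy5 signal per array was 61.5 to 84.3 intensity units, and 53.1% to 63.4% of probes were well above background. The arrays lay on 5 slides. Slide 1 held HFD replicates 1 and 2 and LFD replicates 1 and 2 and no HPD array, and slide 5 held 1 HFD and 1 LFD array.

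The members were well measured in these cells. On every one of the 18 arrays 61 of the 64 exceeded background clearly in Cy5, and no member value was missing or saturated. Mrpl43, a large-subunit protein specific to mitochondria, was above background on 17 arrays, Mrps2 on 15 and Mrps7 on 13. No member lay between these and the limit of 5 arrays, and none lay below it. For Mrps2 and Mrps7, both with a bacterial counterpart in the small subunit, the pool channel was above background on only 1 and 2 of the 18 arrays, so their ratios rest on a dim Cy3 signal. The SD of a member's values within diets had a median of 0.19 on the log2 scale, and the median over all genes tested was 0.36.

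**Figure D1:**
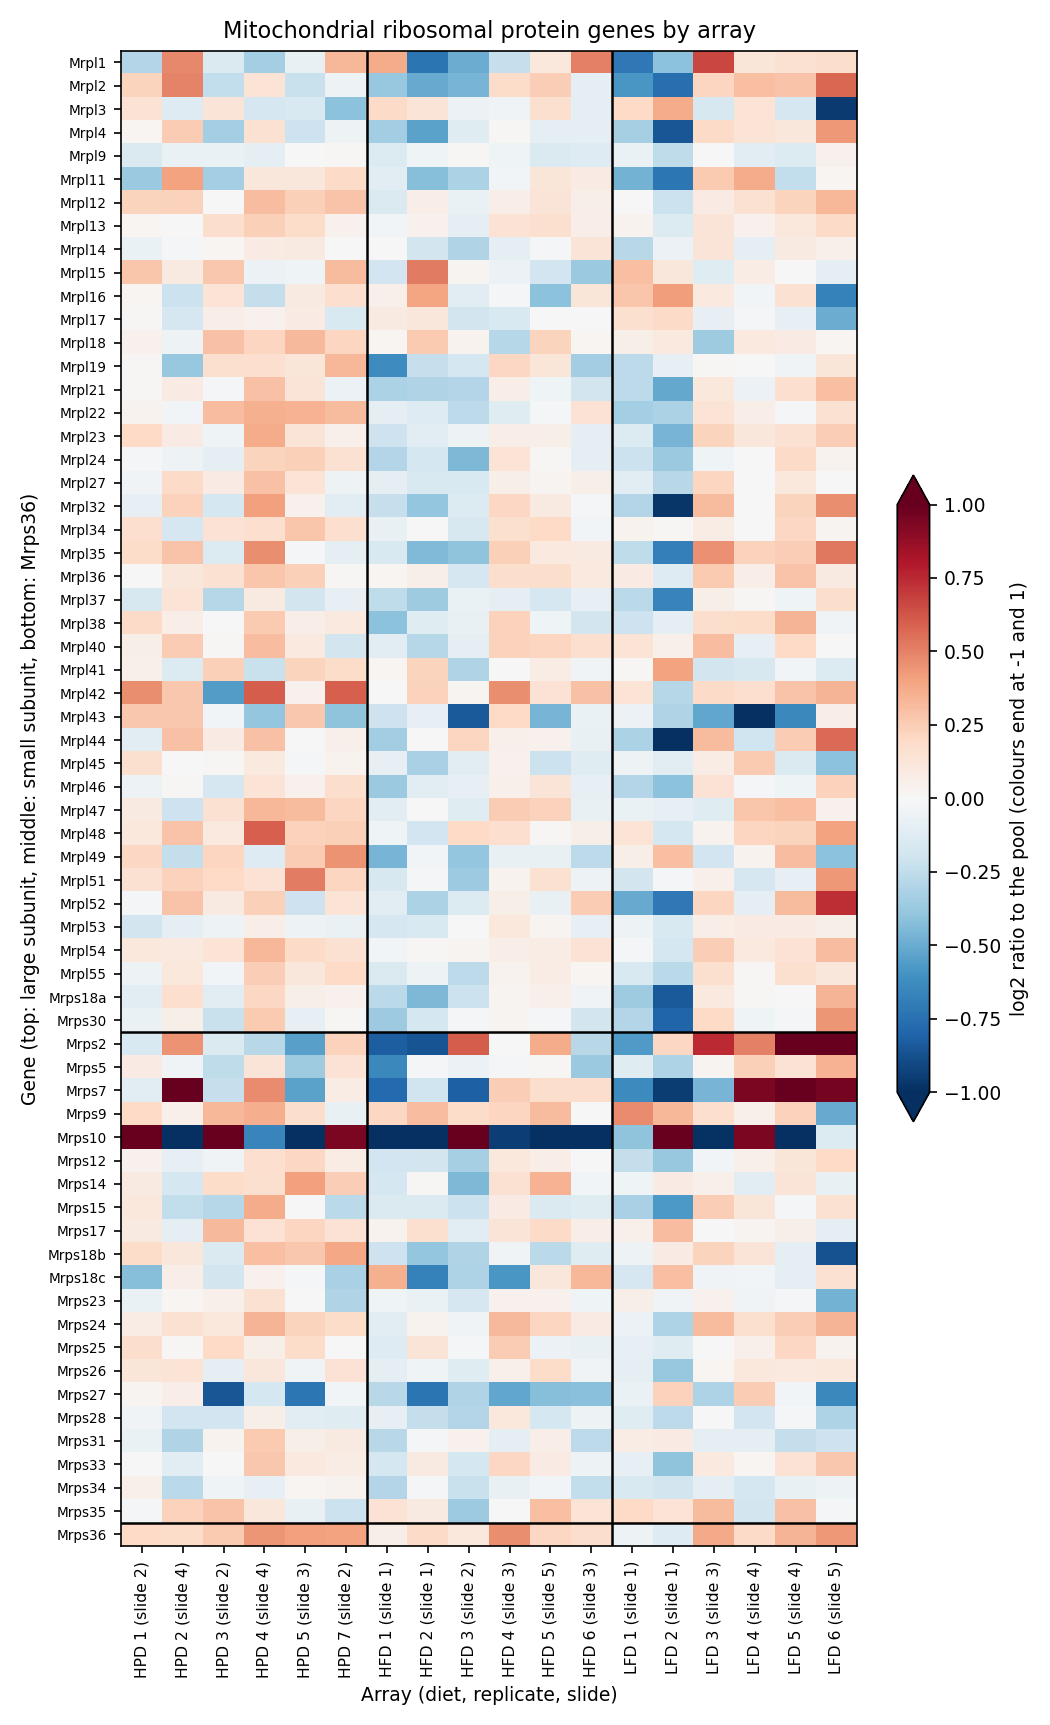
Log2 ratio to the pool of each of the 64 genes (rows, by subunit) on each of the 18 arrays (columns, HPD, HFD and LFD from left to right). Most ratios lie close to 0. Mrps10, Mrps7 and Mrps2 reach the ends of the colour scale, and LFD replicate 2 holds the lowest value of 26 of the 64 genes.

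HPD was set against HFD to ask how diets of equal energy, rich in protein or in fat, leave the PBMC transcriptome. The mitochondrial ribosomal protein genes tended to lie slightly higher in HPD rats than in HFD rats. The difference was above 0 for 59 of the 64 members, beside 54.5% of all genes tested. Its median was 0.12 on the log2 scale, a ratio of 1.09, and the median over all genes was 0.020. No single member passed: limma called 0 of the 64 at an adjusted p under 0.05 and 0% of all genes tested. At an unadjusted p under 0.05, 4 members were higher and 0 lower, beside 1.95% of all genes higher and 1.17% lower. The median standard error of a member's difference was 0.12, about as large as the median difference, and the median over members was 0.078 after a normexp background correction fitted without marked spots. The HPD and HFD arrays overlapped for every member, while 0.162% of all genes had all HPD arrays above all HFD arrays and 0.0741% had all below. Over the 3 diets at once, 2 members had an unadjusted p under 0.05 in limma's F test, beside 2.43% of all genes, and 0 an adjusted one. In RNA from a mixture of cells, fewer cells of a type and less RNA per cell cannot be told apart.

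The 4 members with the smallest p lay above the HFD rats in most HPD rats. Mrps18b, a small-subunit protein and one of 3 mammalian descendants of bacterial S18, had values of -0.14, 0.22 and 0.39 (lowest, median, highest) in HPD rats, -0.39, -0.24 and -0.034 in HFD rats, and -0.87, 0.019 and 0.22 in LFD rats. All HPD arrays but replicate 3 exceeded the highest HFD array, and LFD overlapped both. The HPD minus HFD difference was 0.40 ± 0.16 (SE, n = 6 each, limma, unadjusted p = 0.0182, adjusted p = 0.994). With normexp fitted on all spots it was 0.19. Its probe lies at chr20:2987325-2987478 on rn4, plus strand.

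Mrpl51 is a large-subunit protein specific to mitochondria. It had 0.14, 0.21 and 0.51 in HPD rats, -0.36, -0.031 and 0.15 in HFD rats, and -0.18, -0.048 and 0.43 in LFD rats. Every HPD array was above 0, and 4 of 6 exceeded the highest HFD array. The HPD minus HFD difference was 0.31 ± 0.12 (SE, n = 6 each, limma, unadjusted p = 0.0185, adjusted p = 0.994), and it was 0.15 from Cy5 alone and 0.49 with slide as a block. Its probe lies at chr4:161313262-161313321 on rn4, plus strand.

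Mrpl22, whose bacterial counterpart L22 lines the exit tunnel for the growing chain, had -0.030, 0.31 and 0.36 in HPD rats, -0.26, -0.11 and 0.15 in HFD rats, and -0.34, 0.022 and 0.15 in LFD rats. In HPD rats 4 arrays lay together near the top of this range and the other two near 0. The HPD minus HFD difference was 0.30 ± 0.12 (SE, n = 6 each, limma, unadjusted p = 0.0191, adjusted p = 0.994). Its probe lies at chr10:43807022-43809031 on rn4, plus strand, a span longer than an array oligo.

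Mrpl49, also specific to mitochondria and in the large subunit, had -0.24, 0.21 and 0.45 in HPD rats, -0.46, -0.17 and -0.031 in HFD rats, and -0.41, 0.049 and 0.31 in LFD rats. All 6 HFD arrays were below 0, and 4 of 6 HPD arrays exceeded the highest of them. The HPD minus HFD difference was 0.34 ± 0.15 (SE, n = 6 each, limma, unadjusted p = 0.0317, adjusted p = 0.994). With the array of conflicting labels counted as HFD, it was 0.18 (limma, unadjusted p = 0.282), and with normexp on all spots 0.17. Its probe lies at chr1:208692119-208692178 on rn4, minus strand.

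**Figure D2:**
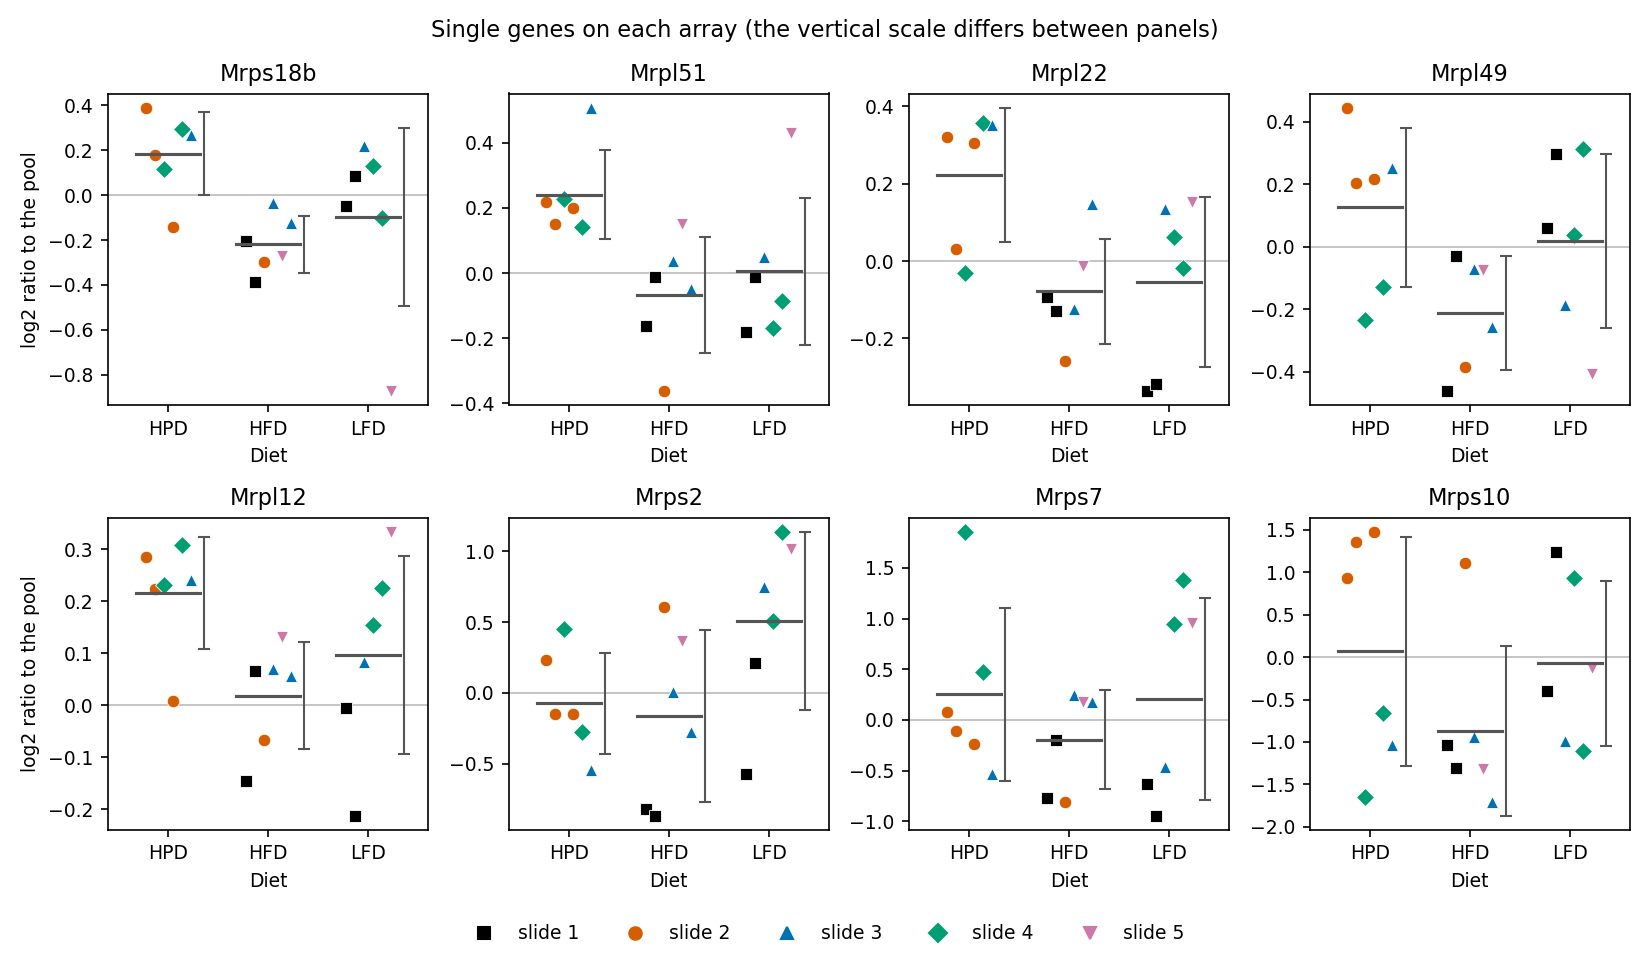
Log2 ratio to the pool on each array for 8 genes, by diet (HPD, HFD, LFD), with symbols for the slide, a bar for the diet mean and a whisker for 1 SD (n = 6). In the upper row most HPD arrays lie above the HFD arrays. In the lower row Mrps10 falls into a high and a low part, with all 4 slide 2 arrays in the high part.

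The members that lay lower in HPD rats differed by little. Mrpl3, whose bacterial counterpart L3 reaches towards the peptidyl transferase centre, had the lowest HPD minus HFD difference, -0.15 ± 0.18 (SE, n = 6 each, limma, unadjusted p = 0.417). It was -0.084 without HPD replicate 7, the array of conflicting labels, -0.018 with that array counted as HFD, and -0.017 from Cy5 alone. Mrps9, Mrps18c and Mrpl53 followed with -0.031, -0.015 and -0.015, and each of these changed sign under some other setting of the processing. By size, the highest difference was that of Mrps10, at 0.94 ± 0.60 (SE, n = 6 each, limma, unadjusted p = 0.137), whose arrays are described below. Mrps7, whose bacterial counterpart S7 starts the assembly of the subunit head, followed at 0.45 ± 0.44 (limma, unadjusted p = 0.315), and its difference was 0.13 without HPD replicate 2.

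Both subunits leaned the same way. In the large subunit 39 of 42 members were higher in HPD than in HFD rats, with a median difference of 0.13, and in the small subunit 19 of 21 were, with a median of 0.091. Members with a bacterial counterpart were higher in 34 of 38 cases (median 0.13), and those specific to mitochondria in 23 of 24 (median 0.10). Mrps36, the dehydrogenase subunit, had a difference of 0.11, within the range of the ribosomal members.

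Of the stalk and the decoding centre, 3 proteins were measured. Mrpl12, the stalk protein that recruits translation factors, had 0.0074, 0.24 and 0.31 in HPD rats, -0.15, 0.061 and 0.13 in HFD rats, and -0.21, 0.12 and 0.33 in LFD rats. All HPD arrays but replicate 3 exceeded the highest HFD array, and the LFD arrays spanned both ranges. Its HPD minus HFD difference was 0.20 ± 0.10 (SE, n = 6 each, limma, unadjusted p = 0.0637). Mrpl11, at the base of the stalk, differed by 0.13 ± 0.19 (0.053 without HPD replicate 2), and Mrps12, of the decoding centre, by 0.15 ± 0.11, both with arrays that overlapped between diets. Mrpl10, the protein that anchors Mrpl12, has no probe under that name and was not analysed here.

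The 3 descendants of S18 did not share one pattern. Beside Mrps18b, the large-subunit form Mrps18a had an HPD minus HFD difference of 0.19 ± 0.16 (SE, n = 6 each), with -0.11, 0.049 and 0.21 in HPD rats, -0.45, -0.12 and 0.048 in HFD rats, and -0.84, 0.0079 and 0.34 in LFD rats. Mrps18c, the form that takes the place of S18 in the small subunit, had -0.43, -0.10 and 0.063 in HPD rats, -0.67, -0.097 and 0.35 in HFD rats, and -0.17, -0.035 and 0.30 in LFD rats. Its HPD arrays lay within the range of the HFD arrays. The differences between the 3 genes were not tested.

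**Figure D3:**
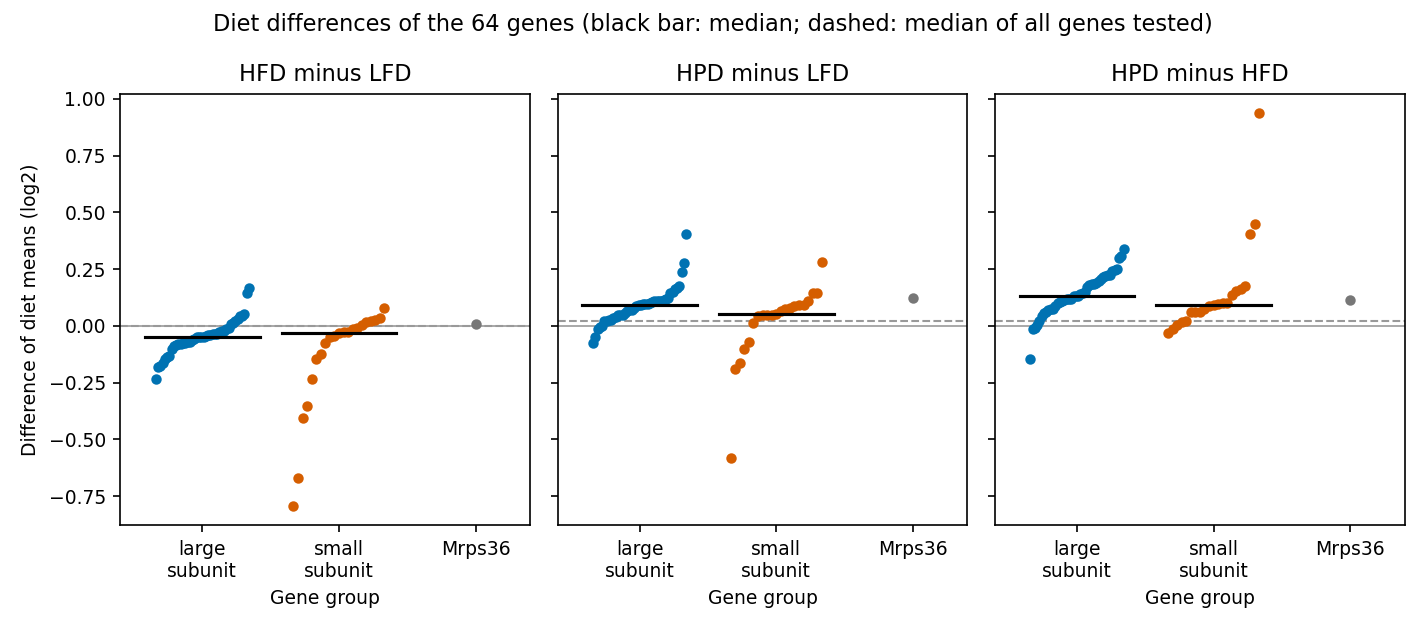
Difference of diet means (log2) for each gene by subunit in the 3 comparisons, with a bar at the median of the subunit's genes and a dashed line at the median of all genes tested. The medians of both subunits lie above the dashed line for HPD minus HFD and HPD minus LFD and below it for HFD minus LFD.

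HPD against LFD asks what protein in place of carbohydrate, at equal fat, left in the PBMC. The difference was above 0 for 54 of the 64 members, beside 55% of all genes tested, with a median of 0.079 over members and 0.023 over all genes. Limma called 0 members at an adjusted p under 0.05, and 0% of all genes. At an unadjusted p under 0.05, 1 member was higher and 0 lower, beside 1.77% and 1.21% of all genes. The arrays of the 2 diets overlapped for every member, and separated upwards for 0.0556% and downwards for 0.0324% of all genes. That member was Mrpl22, with 0.28 ± 0.12 (SE, n = 6 each, limma, unadjusted p = 0.0296, adjusted p = 1.00), and 0.14 without slide 1 (limma, unadjusted p = 0.248). Without the 4 arrays of slide 1 the median over members was -0.014 and 28 of 64 were higher, and without LFD replicate 2 alone it was 0.027 with 42 higher.

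Mrpl43 had the highest HPD minus LFD difference, 0.41 ± 0.20 (SE, n = 6 each, limma, unadjusted p = 0.0618). It had -0.40, 0.12 and 0.27 in HPD rats, -0.84, -0.14 and 0.20 in HFD rats, and -0.99, -0.41 and 0.066 in LFD rats. All 6 HPD arrays lay above the LFD median, but the ranges overlapped. The difference was 0.064 with normexp on all spots and 0.70 with slide as a block. Mrps18b and Mrpl51 followed with 0.28 ± 0.16 and 0.24 ± 0.12, and without LFD replicate 6 the value for Mrps18b was 0.13. With normexp on all spots it was 0.038, and for Mrpl51 the value from Cy5 alone was 0.020.

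On the lower side Mrps2 had an HPD minus LFD difference of -0.58 ± 0.30 (SE, n = 6 each, limma, unadjusted p = 0.0664). It was -1.29 within slide 3 and -0.73 within slide 4. It was -1.002 with slide as a block (limma, unadjusted p = 0.000396, adjusted p = 0.388) and -0.071 from Cy5 alone (limma, unadjusted p = 0.824). With normexp on all spots it was -0.035. Mrps27, a pentatricopeptide repeat protein of the small subunit, had -0.19 ± 0.18 (-0.074 without HPD replicate 3), Mrps18c -0.16 ± 0.18 and Mrpl53 -0.077 ± 0.084. In all, 5 of the 10 members that were lower belong to the large subunit and 5 to the small one.

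HFD against LFD asks what fat in place of carbohydrate, at equal energy, left in the PBMC. The difference was above 0 for 16 of the 64 members, beside 50.2% of all genes tested, and below 0 for 48, beside 49.8%, with a median of -0.044 over members and 0.00063 over all genes. Limma called 0 members at an adjusted p under 0.05, and 0% of all genes. At an unadjusted p under 0.05, 0 members were higher and 1 lower, beside 0.852% and 1.26% of all genes. The arrays of the 2 diets overlapped for every member, and separated upwards for 0.0417% and downwards for 0.051% of all genes. The median over members was -0.14 from Cy5 alone, and -0.013 without HFD replicate 3.

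The member with that p was Mrps2. It had -0.54, -0.15 and 0.45 in HPD rats, -0.87, -0.14 and 0.61 in HFD rats, and -0.57, 0.63 and 1.14 in LFD rats. All 6 HFD arrays lay below the LFD median, and the ranges overlapped. Its HFD minus LFD difference was -0.67 ± 0.30 (SE, n = 6 each, limma, unadjusted p = 0.0366, adjusted p = 1.00). With normexp it was -0.051 on all spots and -0.095 when fitted without marked spots. In Cy5 the probe was well above background on 6 HPD, 4 HFD and 5 LFD arrays.

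Mrps27 had -0.85, -0.10 and 0.067 in HPD rats, -0.73, -0.42 and -0.28 in HFD rats, and -0.65, -0.046 and 0.25 in LFD rats. All 6 HFD arrays were below 0, while the lowest HPD array lay below them and the lowest LFD array among them. The HFD minus LFD difference was -0.35 ± 0.18 (SE, n = 6 each, limma, unadjusted p = 0.0698). A second probe of Mrps27, above background on all 18 arrays, gave -0.13 for HFD minus LFD and -0.021 for HPD minus LFD. Mrps5, of the messenger entry channel, and Mrpl49 had -0.24 ± 0.14 and -0.23 ± 0.15. Without HFD replicate 1 the value for Mrps5 was -0.14, and for Mrpl49 it was -0.14 without slide 1 and also with the array of conflicting labels counted as HFD. On the higher side Mrpl43, Mrpl3, Mrps9 and Mrpl18 had 0.17, 0.14, 0.079 and 0.044, none beyond its standard error. The value for Mrpl43 ranged between 0.049 without LFD replicate 4 and 0.29 without HFD replicate 3, and that for Mrpl3 was -0.028 without LFD replicate 6.

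The 3 comparisons share their diet groups, so their counts are not independent. By the order of the 3 diet means, 39 members had HPD over LFD over HFD, 14 had HPD over HFD over LFD, and 11 had one of the other orders. Differences beyond 0.2 in either direction were found for 14 members for HPD minus HFD, 5 for HPD minus LFD and 6 for HFD minus LFD. The shares of all genes with each order or beyond 0.2 are not given here, so these counts do not set the members apart.

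The mean over all 64 members on an array put the diet differences beside the spread between rats. That mean was 0.068 ± 0.047 in HPD rats, -0.074 ± 0.091 in HFD rats and 0.0019 ± 0.13 in LFD rats (SD, n = 6 each). All 6 HPD arrays had a mean above 0, between 0.014 and 0.15, as had 2 of 6 HFD and 4 of 6 LFD arrays. The median over all genes was above 0 on all 6 HPD arrays too, between 0.019 and 0.057. It ran between -0.020 and 0.044 on HFD arrays and between -0.021 and 0.099 on LFD arrays. HFD arrays ranged between -0.17 and 0.042 and LFD arrays between -0.19 and 0.10. The ranges of all diets overlapped.

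The 4 arrays of slide 1 held the low end. Their means lay between -0.19 and -0.12, in HFD and LFD rats alike, and only HFD replicate 3 on slide 2, at -0.14, was as low. Within HFD, 54 of 64 members were lower on slide 1 than on other slides, with a median difference of -0.098, and within LFD 46 were, with -0.23. Over all genes the same differences had medians of -0.034 and -0.075, and 54.6% and 54.7% of all genes were lower. LFD replicate 2 gave the lowest value of 26 members and LFD replicate 6, on slide 5, the highest value of 15. On LFD replicate 2 the large subunit had a mean of -0.27 and the small subunit -0.042. The small-subunit mean includes Mrps10, which had 1.24 on that array, the highest value of the subunit there.

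**Figure D4:**
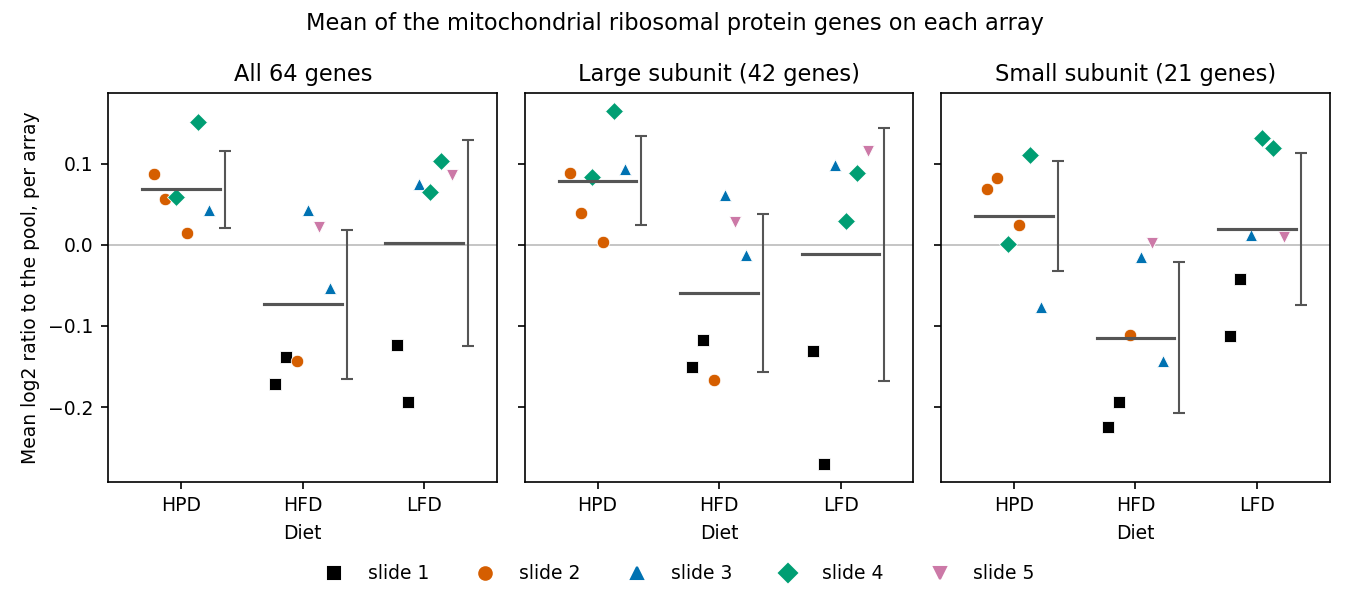
Mean log2 ratio to the pool per array over all 64 genes, the 42 of the large and the 21 of the small subunit, by diet (HPD, HFD, LFD), with symbols for slides, a bar for the diet mean and a whisker for 1 SD (n = 6). All HPD arrays lie above 0 in the left panel and the 4 slide 1 arrays lie between -0.19 and -0.12. The median over all genes, not drawn, was also above 0 on all HPD arrays, at 0.019 to 0.057.

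Within slides that held both diets, HPD lay above HFD for most members. On slide 2, with 3 HPD arrays and 1 HFD array, 53 of 64 members were higher, beside 51.4% of all genes. The median difference was 0.17, beside 0.011 over all genes. On slide 3, with 1 HPD and 2 HFD arrays, 44 were higher, beside 52.4% of all genes. The median there was 0.078, beside 0.019 over all genes. HPD against LFD gave 38 members higher and a median of 0.043 on slide 4 (2 arrays each), beside 49.6% and -0.0022 over all genes. On slide 3 (1 array each) it gave 27 higher and -0.036, beside 51.2% and 0.010. HFD against LFD gave 39 higher and 0.060 on slide 1 (2 arrays each), beside 51.3% and 0.010 over all genes. On slide 3 (2 HFD, 1 LFD) it gave 16 higher and -0.088, beside 49.9% and -0.00075. On slide 5 (1 array each) it gave 25 higher and -0.072, beside a similar -0.062 over all genes, of which 45.7% were higher.

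For the genes with the smallest p the within-slide differences of HPD minus HFD were 0.44 on slide 2 and 0.35 on slide 3 for Mrps18b, and 0.55 and 0.52 for Mrpl51. For Mrpl22 they were 0.48 and 0.34, and for Mrpl49 0.67 and 0.42. Each of the 4 was higher in HPD on both slides that held the pair of diets. They were picked by their p for HPD against HFD on these same arrays, so this is no separate evidence. HFD replicate 3 is the only HFD array on slide 2, and it was the lowest HFD array for Mrpl51 and Mrpl22.

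With diet in the model, limma called 0 of 64 members for slide at an adjusted p under 0.05, against 0.204% of all genes tested. At an unadjusted p under 0.05 it gave 18 members, beside 22.2% of all genes. The lowest adjusted p for slide was 0.0828, for Mrps2, followed by Mrps7 and Mrps10 at 0.0846 each.

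Mrps10, a protein of the small-subunit head with a bacterial counterpart, varied more than any other member, with an SD within diets of 1.12. It had -1.65, 0.14 and 1.47 in HPD rats, -1.70, -1.17 and 1.11 in HFD rats, and -1.11, -0.27 and 1.24 in LFD rats. The arrays fell into 2 parts, with 6 arrays between 0.94 and 1.47, 12 between -1.70 and -0.13, and none between. The high part held 3 HPD, 1 HFD and 2 LFD arrays, among them all 4 arrays of slide 2, with LFD replicate 2 of slide 1 and LFD replicate 4 of slide 4. It was read from a single probe at chr9:9077319-9077378 on rn4, minus strand, so the split has no second probe to set against it.

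Mrps7 came next, with an SD of 0.81 and values of -0.53, -0.021 and 1.85 in HPD rats, -0.81, -0.013 and 0.25 in HFD rats, and -0.95, 0.24 and 1.38 in LFD rats. Its 3 highest LFD arrays lay on slides 4 and 5 and its highest HPD array on slide 4. Mrps2 followed with 0.54. At the other end stood Mrpl9, with a bacterial counterpart, at an SD of 0.080, Mrpl53 at 0.095 and Mrps34 at 0.10, both specific to mitochondria. Mrpl9 stayed between -0.26 and 0.042 over all arrays.

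Where a member had more than one probe, the probes did not always give one answer. For 11 members more than 1 probe passed. The probes of Mrpl17, Mrpl41, Mrpl55 and Mrps14 ran together over the 18 arrays, with Pearson's r of 0.956, 0.974, 0.954 and, for 2 further probes of Mrps14, 0.970 and 0.825. Those of Mrpl9, Mrpl34 and Mrpl40 did not, at -0.422, -0.113 and -0.160. The sign of at least 1 diet difference depended on the probe for Mrpl9, Mrpl18, Mrpl34, Mrpl40, Mrps23 and Mrps33. None of the 6 had an unadjusted p under 0.05 in a diet comparison from its brightest probe.

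The members did not move as one block. With diet means removed, the median of Pearson's r over the 2016 pairs of members on 18 arrays was 0.22, at 0.34 within the large subunit and 0.058 within the small one, and 64.7% of pairs were above 0. With slide means removed as well it was 0.13 over all members, 0.145 within the large subunit and 0.070 within the small one. Over 62 respiratory chain genes the median was 0.17 with diet means removed and 0.15 with slide means removed as well. Over 72 cytosolic ribosomal protein genes these medians were 0.30 and 0.32. The points share arrays, slides and the pool, so these are descriptions. Mrps24, Mrpl21 and Mrpl23 followed the mean of the other members most closely, at 0.941, 0.902 and 0.885. Mrpl16, Mrpl17 and Mrpl3 ran against it, at -0.615, -0.590 and -0.581. These 3 are large-subunit proteins with a bacterial counterpart, as are Mrpl21 and Mrpl23. Mrpl16, Mrpl17 and Mrpl3 all had their lowest value on LFD replicate 6, where the mean over all members was 0.086. These genes were chosen after their values were seen.

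Other groups of mitochondrial gene expression also had medians above that of all genes, which was 0.020 for HPD minus HFD. For HPD minus HFD the difference was above 0 for 9 of 11 mitochondrial translation factors (median 0.11), 14 of 21 mitochondrial aminoacyl-tRNA synthetases (0.12), 17 of 23 genes of mitoribosome assembly and RNA modification (0.098) and 9 of 12 regulators of mitochondrial transcription and biogenesis (0.042). It was above 0 for 45 of 62 respiratory chain subunits (0.045), which include the partners of what the mitoribosome makes, and for 60 of 74 cytosolic ribosomal proteins (0.066). Limma called 0 genes of these lists in any diet comparison, and whether the lists differ from the members was not tested. Of 5 subunits of the mitoribosome named otherwise on the array, 4 were higher, among them Gadd45gip1 with 0.23 ± 0.14 and Chchd1 with 0.20 ± 0.14 (SE, n = 6 each).

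The genes with the smallest p in the lists of translation factors and of assembly had differences of both signs, although most genes of both lists were higher in HPD rats. Gfm2, which recycles mitochondrial ribosomes, had an HPD minus HFD difference of -0.35 ± 0.18, and Mrrf, its partner in recycling, 0.26 ± 0.15 (SE, n = 6 each, limma, unadjusted p = 0.0662 and 0.0932). Ddx28, a helicase of large-subunit assembly, had -0.39 ± 0.17 (limma, unadjusted p = 0.0364). Spg7, a subunit of the protease that matures Mrpl32, had an HFD minus LFD difference of -0.53 ± 0.20 (limma, unadjusted p = 0.0146) and an HPD minus HFD difference of 0.35 ± 0.20. None passed after adjustment, with adjusted p of 0.994 for HPD against HFD and 1.00 for HFD against LFD.

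**Figure D5:**
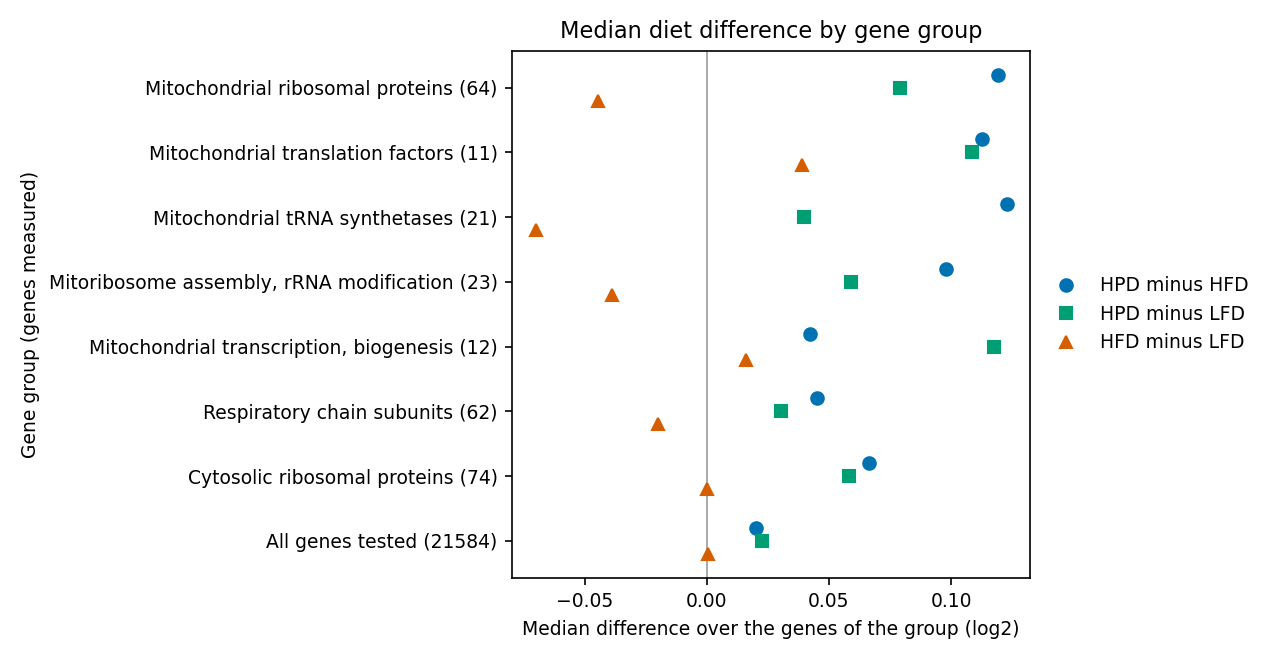
Median difference between diets (log2) over the genes measured in each of 7 gene groups and over all genes tested. The members lie at 0.12 for HPD minus HFD, 0.079 for HPD minus LFD and -0.044 for HFD minus LFD, and the other 6 groups lie between 0.030 and 0.12 for HPD minus HFD and HPD minus LFD, against 0.020 and 0.023 for all genes.

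Markers of several blood cell types had larger median differences between the same diets than the members, with larger standard errors. For HPD minus HFD the median standard error was 0.37 for monocyte and 0.26 for NK and cytotoxic cell markers. It was 0.49 for erythroid and 0.51 for platelet markers, beside 0.12 for members. For HPD minus HFD all 13 monocyte markers measured were lower, with a median of -0.40, as were 10 of 11 NK and cytotoxic cell markers (-0.31), 12 of 13 erythroid markers (-0.69) and all 10 platelet markers (-0.25). Of the T cell markers 11 of 14 were higher (0.095), of the B cell markers 3 of 6 (0.012), and of the neutrophil markers 3 of 7 (-0.14). For HPD minus LFD the medians were -0.29 for monocyte, -0.23 for NK and cytotoxic cell, -0.71 for erythroid and -0.58 for platelet markers, and for HFD minus LFD all 10 platelet markers were lower (-0.29) and 11 of 13 monocyte markers higher (0.14). None of these genes passed limma's test at an adjusted p under 0.05. Summed as a mean per array, the monocyte markers ran between -1.32 and 0.38 in HPD rats, -0.52 and 0.88 in HFD rats, and -0.42 and 0.48 in LFD rats. Erythroid markers ran between -1.21 and -0.18 in HPD rats, -1.30 and 0.53 in HFD rats, and -0.85 and 0.72 in LFD rats, and on the 4 arrays of slide 1 between 0.48 and 0.63. Platelet markers ran between -1.37 and -0.12 in HPD rats, -2.16 and 0.98 in HFD rats, and -0.71 and 1.27 in LFD rats. T cell markers ran between -0.33 and 0.23 in HPD rats, -0.46 and 0.043 in HFD rats, and -0.56 and 0.23 in LFD rats. NK and cytotoxic cell markers ran between -0.62 and 0.24 in HPD rats, -0.28 and 0.28 in HFD rats, and -0.66 and 0.68 in LFD rats. The part of these cells in the members' differences was not tested.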

How the data were processed

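Each of the 18 rat 4x44K 2-colour arrays came as 1 scanner output. The submitters' processing notes name Agilent Feature Extraction, version 10.5.1.1. Per the file headers, the scanner software had already subtracted background from the processed intensity and balanced the dyes, whereas mean and background intensity columns are untreated. Its 0 or 1 marks for outlying spots and for clear signal were used as deposited. A log2 table by the authors served as an alternative, and its centring is unknown (every column has a median of 8.40). Probe positions are on rn4 per the file headers.

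Here log2(Cy5/Cy3) of the processed signals was taken per spot, outlying spots were set missing, repeated spots were averaged by probe, and each gene kept its brightest probe where Cy5 was well above background on at least 5 arrays (25207 of 41012 probes). RefSeq names (GRCr8) matched 19682 probes. Means per diet were fitted with limma 3.58.1 in R 4.3.3 over all 18 arrays, and p-values were adjusted by Benjamini and Hochberg's method over the 21584 genes (limit 0.05). The fit was tested on simulated data with noise independent between genes and no slide effect. The shifts added there were larger than the members' median differences, so that test does not cover differences as small as these. The replicates are separate rats as the labels describe them, and the number of arrays limits the precision.

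Members and gene lists were chosen with earlier results of these data known. The text names, per comparison, the 4 members with the smallest p in each direction, the 3 with the largest and the smallest SD within diets, the 3 with the smallest p for slide, the Mrps18 forms, Mrpl10, Mrpl11, Mrpl12 and Mrps12, members near the detection limit, members whose probes disagree and, of other lists, up to 2 genes per comparison. Alternatives covered background correction, scaling, centring, channel, probe rule, filter, slide, labels and left-out arrays.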

Additional observations from a re-analysis of the deposited data

Results flagged for a closer look

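In 28 sets of values (25 named members and the per-array means over all members and over each subunit), each diet's 6 arrays were searched for 1 array that stood apart by more than Dixon's limit of 0.625 of the range. Of 84 groups tested, 8 did. The limit is passed by about 1 in 20 independent groups by chance. Many of these members were picked by their values in the same data and the groups share arrays, so the 8 cannot be set against that rate. In HPD rats, Mrpl12 was low on replicate 3, at 0.0074, against 0.22 to 0.31 on the others. Mrpl34 was low on HPD replicate 2, at -0.17, against 0.14 to 0.28, and Mrpl51 was high on HPD replicate 5, at 0.51, against 0.14 to 0.23. Among HFD rats, Mrps10 was high on replicate 3, at 1.11, against -1.70 to -0.94, and this is the only HFD array on slide 2. Among LFD rats, Mrpl18 was low on replicate 3, at -0.36, against 0.019 to 0.10, and Mrpl34 was high on replicate 5, at 0.21, against 0.00070 to 0.076. LFD replicate 6 was low for Mrps18b, at -0.87, against -0.100 to 0.22, and for Mrps23, at -0.47, against -0.039 to 0.061.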

How the results depend on the processing

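No alternative gave a member an adjusted p under 0.05 in a diet comparison. For HPD minus HFD the median over members was 0.078 to 0.19 and 54 to 61 of 64 members were higher, and 0.096 to 0.15 with 1 array left out. For HPD minus LFD it was 0.027 (without LFD replicate 2) to 0.11 with 1 array left out, 0.030 with array weights, and -0.014 without slide 1, the only change of sign among these 3 medians. For HFD minus LFD it was -0.14 (Cy5 alone) to -0.020, -0.11 without slide 1, and -0.093 (without LFD replicate 2) to -0.013 (without HFD replicate 3) with 1 array left out. With the replicate block the medians were 0.12 for HPD minus HFD, 0.079 for HPD minus LFD and -0.044 for HFD minus LFD, with 0 members called. With diet means removed, same-numbered arrays correlated over 0.1 in 1 of 5 pairs for HPD and HFD. For HPD and LFD 2 of 5 did, and for HFD and LFD 2 of 6. The labels do not say whether the numbers pair rats, and these correlations cannot decide it. Slide called 2 members with normexp fitted without marked spots, 18 in the authors' table, and 0 to 11 with 1 array left out (11 without HFD replicate 5). In the main fit it called 0 members and 0.204% of all genes. The shares of all genes called in the other fits are not given here, so these counts do not set the members apart. The cause of the varying counts was not tested.

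Single members near 0 changed sign. For HFD minus LFD, Mrpl18 was -0.014 in the authors' table and -0.028 to 0.11 with 1 array left out. Mrpl43 was -0.0097 with normexp on all spots, -0.075 from Cy5 alone and -0.013 in the authors' table. Mrpl3 (-0.028 to 0.24) and Mrps9 (-0.047 to 0.15) turned without LFD replicate 6. For HPD minus HFD, Mrpl53 was 0.076 from Cy5 alone, 0.12 in the authors' table and -0.040 to 0.015 with 1 array left out. Mrps18c was 0.12 with slide as a block, 0.051 with the conflicting array as HFD, 0.022 without it, 0.082 with the replicate block, 0.11 in the authors' table, 0.079 with HFD replicates 1 and 6 averaged (chosen after seeing the data, as the most alike arrays, r = 0.618) and -0.12 to 0.081 with 1 array left out. Mrps9 was 0.044 from Cy5 alone, 0.059 with the conflicting array as HFD, 0.019 without it and -0.072 to 0.019 with 1 array left out. For HPD minus LFD, Mrps18c was 0.021 with slide as a block. Dim pool signals limit Mrps2 and Mrps7.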
